A study of Mus musculus with 167 samples.

Results

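The genes Pgf, Igf1, Enpep, Plk2, Cnn1, Epas1, Cldn4, Myl4, Nrgn and Pfn2 had large RNA changes in mouse pro-B cells with an altered Wapl allele. These 10 genes were picked from the 24795 gene rows of the deposited RNA tables for large differences between wild-type and Wapl deltaP1,2 homozygous sorted pro-B cells, so that contrast is described here without a test. The other libraries were used to ask whether the change was also seen in pre-B cells, in cultured pro-B cells, in progenitors without Pax5 and in pro-B cells labelled Eed(F/F) Rag1-cre. All 10 genes have a row in each of the 44 RNA libraries, among 167 samples in the series.

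Cohesin extrudes DNA loops that are often held at sites bound by CTCF, and the protein made from Wapl (row Wapal in the tables) takes cohesin off DNA. Pax5 is required for lymphoid progenitors to become B cells and is known to repress Wapl in pro-B cells, which rearrange the immunoglobulin heavy chain locus. Eed is a core subunit of Polycomb repressive complex 2, which methylates lysine 27 of histone H3 and silences genes. Pre-B cells follow pro-B cells and rearrange the light chain loci.

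The 10 genes share no single pathway. Pgf (placental growth factor, of the vascular endothelial growth factor family) and Igf1 (insulin-like growth factor 1) encode secreted ligands. Enpep encodes glutamyl aminopeptidase, the surface peptidase known in mouse B cell biology as BP-1. Plk2 encodes a Polo-like kinase, and Epas1 the hypoxia-inducible transcription factor subunit HIF-2 alpha. Cldn4 encodes a tight junction claudin. Cnn1 (calponin, an actin-binding protein of smooth muscle), Myl4 (an embryonic and atrial myosin light chain) and Pfn2 (a profilin, which binds actin monomers) act on the cytoskeleton. Nrgn encodes neurogranin, a calmodulin-binding protein of neurons.

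All mice were C57BL/6 and polyadenylated RNA was sequenced. Sorted pro-B and pre-B cells, with 2 Wapl(+/+) and 2 Wapl(deltaP1,2/deltaP1,2) libraries each, were isolated from bone marrow. Cultured pro-B cells, expanded in vitro for 3 days, gave 2 wild-type and 3 homozygous mutant libraries. The Pax5 comparison set 2 libraries of Pax5(-/-) progenitors beside 3 of Pax5(+/+) pro-B cells. The Eed comparison set 5 Eed(F/F) Rag1-cre pro-B libraries, in which the recombinase is driven by Rag1, beside 4 controls. Of those controls, 1 was Eed(F/F) without Cre and 3 were Eed(F/+) with Rag1-cre, so the latter carry Cre and have lost at most 1 allele. The remaining 17 libraries are immature B cells with wild-type or altered Igh loci, and none is labelled as homozygous for an altered allele. In 1 set with neighbouring library numbers, every library carries the same delta-labelled Igh allele, beside a wild-type or another altered allele. The other libraries are Igh(+/+) or carry 1 altered allele (an inversion, CBE or CBE-inv) beside a wild-type one. No label states that libraries of a group came from separate animals, so p-values measure the spread between these libraries, which may be technical. In bulk RNA, fewer cells of a type and less RNA per cell cannot be told apart.

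Each library was scaled to the same total and held 11239 to 12447 genes at 1 TPM or more, where TPM is a transcript's share, corrected for length, of a fixed total. Wapl RNA was 10.4 and 11 TPM in wild-type sorted pro-B cells and 30.9 and 31.6 TPM in the mutant. It was 9.32 and 12.9 against 47.8 and 45.7 TPM in pre-B cells, and 12.2 and 7.41 against 52.8, 30.9 and 30.9 TPM in culture. The mutant allele thus came with more Wapl RNA in all 3 settings. Pax5 RNA was 43.0 and 39.1 TPM in Pax5(-/-) progenitors against 342 to 391 TPM in their controls. Eed RNA was 123 to 222 TPM in libraries labelled Eed(F/F) Rag1-cre and 58.4 to 122 TPM in controls, so it was not lower in the libraries so labelled, and it does not check that label. Sex and Wapl genotype cannot be told apart in sorted cells, since Eif2s3y and Ddx3y of chromosome Y were 2.65 TPM or more in each wild-type pro-B and pre-B library and at most 0.0668 TPM in each mutant one.

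The promoters of Cldn4, Enpep and Cnn1 are shown because RNA of these genes was close to 0 without Pax5. They are the 250 bases before the start of each gene, from RefSeq on GRCm38.p6, at chr5:134946935-134947184 (minus strand), chr3:129332750-129332999 (minus strand) and chr9:22099003-22099252 (plus strand). Capitals mark matches, on either strand, to 4 motifs: CAGCTG (an E-box), the EBF1 core (TCCC and GGGA with any pair of bases between them), ACGTG (the hypoxia response core) and TATAAA. The first and second read the same on both strands.
Cldn4: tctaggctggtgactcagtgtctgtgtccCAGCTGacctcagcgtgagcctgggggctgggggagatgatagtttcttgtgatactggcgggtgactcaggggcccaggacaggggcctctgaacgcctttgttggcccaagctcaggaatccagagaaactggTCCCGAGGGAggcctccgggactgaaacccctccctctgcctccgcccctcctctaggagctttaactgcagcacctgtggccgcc
Enpep: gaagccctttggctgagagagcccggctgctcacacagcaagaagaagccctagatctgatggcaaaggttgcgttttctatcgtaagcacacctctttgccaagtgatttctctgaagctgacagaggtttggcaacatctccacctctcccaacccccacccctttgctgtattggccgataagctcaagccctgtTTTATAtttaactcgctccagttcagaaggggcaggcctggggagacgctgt
Cnn1: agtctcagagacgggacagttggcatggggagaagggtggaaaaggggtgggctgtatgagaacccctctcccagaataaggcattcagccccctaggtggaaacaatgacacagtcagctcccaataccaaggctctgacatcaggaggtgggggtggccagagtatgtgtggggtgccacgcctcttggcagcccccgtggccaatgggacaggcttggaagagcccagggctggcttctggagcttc
The Cldn4 stretch holds CAGCTG, beginning 221 bases before the start, and the EBF1 core, beginning 86 bases before it. The latter was found in 0.779% of 32851 promoters of the same length, and CAGCTG in 13%. Enpep holds TATAAA on the opposite strand (12.4% of promoters), and Cnn1 holds none of the 4. RefSeq sequence was matched for 9 of the 10 genes. Among those, CAGCTG was also in the promoters of Igf1 and Pgf, and ACGTG (16.6% of promoters) in those of Plk2 and Pfn2. A match describes letters and not a bound site.

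CTCF peaks were read from the 2 wild-type libraries of cultured pro-B cells (build mm9), keeping the 34272 peaks of the first library that overlapped one of the second by at least 1 base. A peak centre lay within 1 kb of an annotated transcript start for Plk2 (0.657 kb upstream) and Enpep (0.77 kb downstream of an internal start). Such a peak was present for 18.3% of 22225 protein-coding genes. Within 10 kb there was one for 8 of the 10 genes and for 50.1% of all genes. Cldn4 (13.9 kb) and Epas1 (58.5 kb) were the exceptions. The central 200 bases of the Plk2 peak, at chr13:111184495-111184694 (mm9, plus strand), are shown because it was the closest upstream of a start. Capitals mark AGNNGGC, the core of the CTCF motif, on either strand.
Plk2 CTCF peak: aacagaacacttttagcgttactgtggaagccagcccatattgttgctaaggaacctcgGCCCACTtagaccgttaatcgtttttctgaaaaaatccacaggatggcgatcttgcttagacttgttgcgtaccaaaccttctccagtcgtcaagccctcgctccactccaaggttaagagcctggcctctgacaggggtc
This core was present in 77.3% of the 34272 windows of 200 bases, and in 8 of the 10 windows nearest to these genes.

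In sorted pro-B cells the 10 genes differed between genotypes by 4.9- to 29.3-fold in mean TPM, with 7 higher and 3 lower in the mutant. Over all 11980 genes tested there, 17.3% passed an adjusted p of 0.05 (7.68% of all genes tested were higher and 9.64% lower in the mutant), a share that bears on nothing here because the genes were chosen on this contrast. Pgf was 2.65 and 1.88 TPM in wild-type and 49.0 and 66.7 TPM in mutant libraries, which ranked 1 of 11980 by the size of its log2 difference. The lowest rank was that of Pfn2, at 98.

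The secreted ligands and Enpep were low to moderate in wild-type cells and high in the mutant. Igf1 was 2.16 and 1.78 TPM in wild-type and 28.0 and 28.5 TPM in mutant libraries. Enpep was 20.6 and 20.0 TPM against 214 and 260 TPM. Among the regulators, Plk2 was 4.30 and 4.48 TPM against 48.4 and 51.7 TPM. Epas1 was 1.35 and 1.16 TPM against 14.3 and 17.2 TPM. The mutant libraries were the higher ones for each of these genes, with no overlap. Cnn1, the actin-binding calponin, was 16.6 and 13.8 TPM against 155 and 160 TPM. Pfn2 was 3.98 and 3.89 TPM against 19.9 and 19.0 TPM.

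Cldn4, Myl4 and Nrgn went the other way. Cldn4 was 23.4 and 20.2 TPM in wild-type and 0.609 and 0.879 TPM in mutant libraries. Myl4 was 322 and 311 TPM against 70.8 and 58.5 TPM. Nrgn was 229 and 234 TPM against 34.0 and 28.7 TPM. Mutant and wild-type libraries did not overlap for any of the 3. The 11 markers of pro-B and early B cells summed to 15750 to 16000 TPM in wild-type and 18630 to 20630 TPM in mutant libraries. The 7 granulocyte markers summed to 2301 to 3705 and 1890 to 3633 TPM, and the 8 macrophage markers to 71.3 to 80.6 and 136 to 188 TPM. The 12 stromal and smooth muscle markers summed to 10.2 to 14.1 and 16.1 to 31.3 TPM, with Col3a1, Pdgfra, Pdgfrb, Lepr and Kitl below 0.4 TPM in all 4 libraries. The part of these cell types in the differences was not tested.

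**Figure D1:**
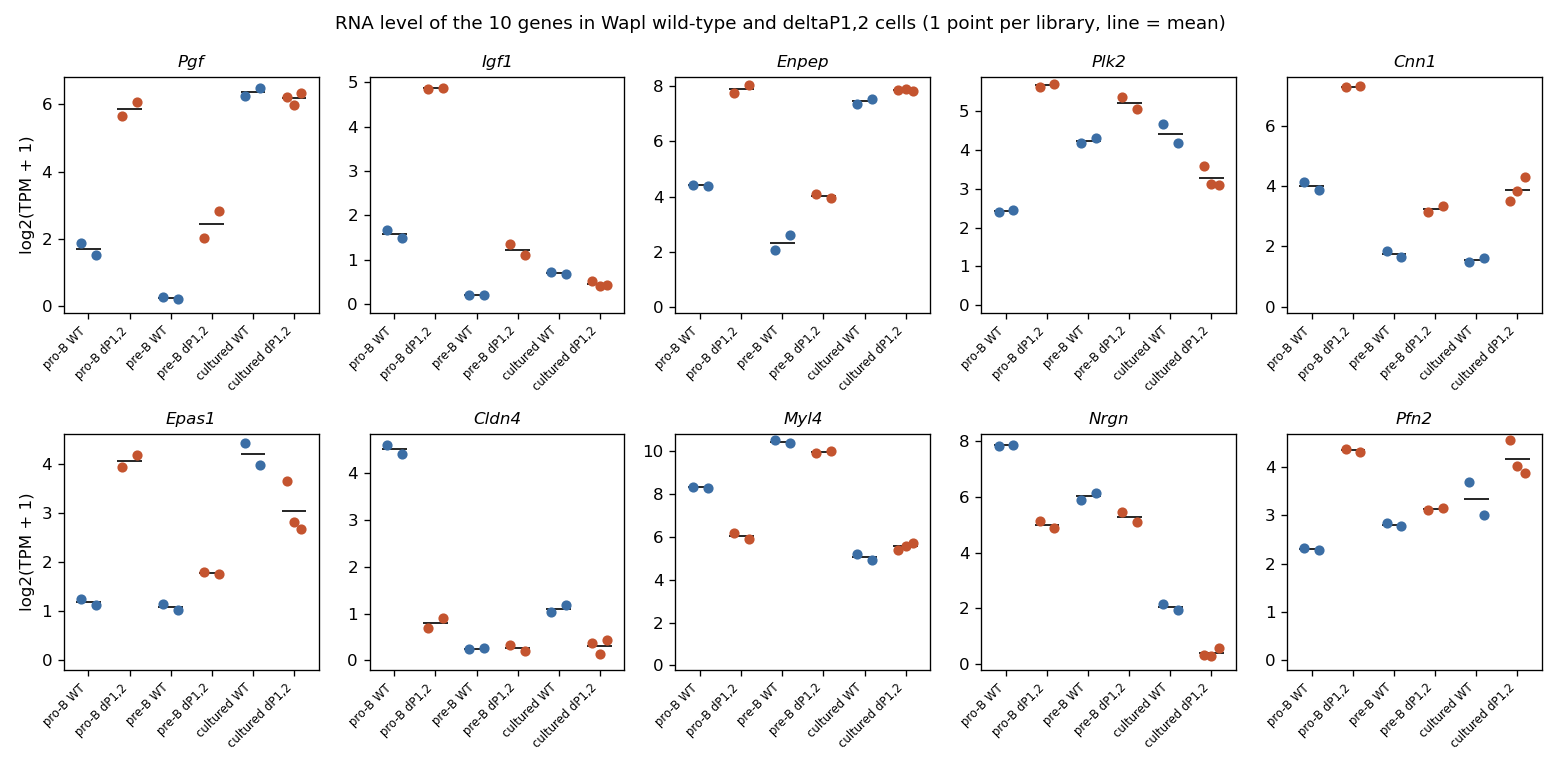
RNA level, as log2(TPM + 1), of each gene in sorted pro-B, sorted pre-B and cultured pro-B cells. Points are libraries, blue for wild type and orange for Wapl deltaP1,2, and the line is the mean. Mutant and wild-type points are far apart in sorted pro-B cells, closer in pre-B cells, and in a changed order for Plk2, Epas1 and Myl4 in culture.

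The question asked of pre-B cells was whether the change held one stage later. There 4 of the 10 genes (Pgf, Enpep, Cnn1 and Plk2) passed the test, all of them higher in the mutant as in pro-B cells. That stands beside 2.12% of 11624 genes called, 1.14% higher and 0.981% lower (limma on log2(TPM + 1), adjusted p under 0.05). Pgf was 0.195 and 0.144 TPM in wild-type and 3.09 and 6.11 TPM in mutant libraries, a log2 difference of 2.20 ± 0.292 (SE, adjusted p = 0.0209). Enpep was 3.15 and 5.14 TPM against 16.2 and 14.4 TPM, a log2 difference of 1.69 ± 0.21 (adjusted p = 0.016). Cnn1 was 2.59 and 2.14 TPM against 7.78 and 9.20 TPM, a difference of 1.495 ± 0.165 (adjusted p = 0.0106). Both mutant libraries lay above both wild-type libraries for each. Pgf, like Igf1, passed the minimum of 1 TPM in pre-B cells through the mutant libraries alone, so its direction was fixed by that minimum. Plk2 was 17.1 and 18.9 TPM against 40.5 and 32.2 TPM, a difference of 0.97 ± 0.14 (adjusted p = 0.0277). Its wild-type level was thus 409% of that in wild-type pro-B cells, whereas those of Pgf, Igf1, Enpep and Cnn1 were 7.49% to 20.4%.

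Igf1, Epas1 and Pfn2 had the sign of the pro-B change in pre-B cells without passing the test. Igf1 was 0.140 and 0.155 TPM against 1.54 and 1.15 TPM (log2 difference 1.03, adjusted p = 0.0978). Epas1 was 1.21 and 1.02 TPM against 2.45 and 2.37 TPM (0.69, adjusted p = 0.177). Pfn2 was 6.13 and 5.89 TPM against 7.66 and 7.94 TPM (0.33, adjusted p = 0.367). Their groups did not overlap. The share of all genes without overlap was not counted here, so this describes the values and adds nothing to the test. Myl4 was 1449 and 1307 TPM in wild-type and 966 and 1029 TPM in mutant libraries, a log2 difference of -0.46 with an adjusted p of 0.0782. Nrgn was 59.2 and 70.2 TPM against 42.7 and 33.1 TPM, a difference of -0.76 with an adjusted p of 0.0836. No gene of the 10 was called lower by limma, although Myl4 (unadjusted p = 0.00203) and Nrgn (unadjusted p = 0.00231) were below 0.05 before adjustment. Cldn4 was 0.155 to 0.261 TPM in all 4 pre-B libraries, under the minimum of 1 TPM set for testing.

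The pre-B calls rested on few libraries. Without either wild-type library no gene at all passed the adjusted threshold in limma, with 1081 and 975 genes at an unadjusted p under 0.05. Without mutant library 1 the count was 203 genes, 2 of the 10 among them, and without mutant library 2 it was 128 genes and 1 of the 10. The differences themselves moved less, that of Pgf lying between 1.80 and 2.60 over these 4 fits. With no filter on low values none of the 10 was called. In a fit shared with the pro-B libraries Igf1 was also higher and Nrgn lower. That fit takes part of its spread from the libraries on which the genes were picked, so nothing is concluded from those 2 calls.

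Pro-B transcripts were also higher in the pre-B mutants, as the gain in mean TPM over wild type taken as a share of the mutant pro-B level shows. Of the 11 pro-B and early B markers, 6 were below 40 TPM in wild-type pre-B cells, and their gain was 0.968% for Dntt, 2.64% for Vpreb2, 3.63% for Kit, 4.56% for Igll1, 6.61% for Vpreb1 and 10.5% for Erg. For Cnn1, Igf1, Enpep, Pgf and Epas1 it was 3.90%, 4.24%, 4.72%, 7.65% and 8.20%, which falls within that span. For Plk2 it was 36.7%, above each of the 6 pro-B transcripts. Of all 11, 6 rose in the pre-B mutants and none fell, with a median log2 difference of 1.38 beside -0.01 over all genes tested. The 6 markers of pre-B and immature B cells with a row, of 8 listed, summed to 2180 to 2183 TPM in wild-type and 1633 to 1785 TPM in mutant libraries. The 16 mitosis transcripts, a list added after the data were seen, summed to 3116 and 3176 TPM in wild-type and 1936 and 2595 TPM in mutant pre-B libraries, with a median log2 difference of -0.50 and no overlap of the sums. The part of these shifts in the pre-B changes was not tested.

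Wild-type pro-B cells in culture already held several of the genes at levels near or above those of the sorted mutant. Pgf was 75.2 and 89.0 TPM, Enpep 163 and 186 TPM, and Epas1 20.7 and 14.8 TPM in cultured wild-type cells. The 3 sorted Pax5(+/+) pro-B libraries, which were not used to choose the genes, held 1.51 to 3.84, 11.6 to 12.98 and 0.662 to 1.42 TPM. In mean TPM these were 32.1-, 14.0- and 17.5-fold higher in culture, and Plk2 and Pfn2 were 5.80- and 2.34-fold higher. Myl4 (8.42-fold), Cnn1 (14.0-fold), Cldn4 (14.6-fold) and Nrgn (51.9-fold) were lower in cultured than in sorted wild-type cells. Thus 5 of the 10 genes lay above all sorted libraries and 4 below, beside 40.0% and 29.2% of the 12900 genes compared, and Igf1 overlapped. Culture, sorting and library series (neighbouring library numbers in the sample titles) differ together here and cannot be told apart. The 12 stromal and smooth muscle markers, moreover, summed to 1526 and 1821 TPM in the cultured wild-type libraries and to 23.7 to 56.1 TPM in the sorted ones, with Col1a1 at 426 to 456 TPM and Cxcl12 at 227 to 302 TPM in culture. How much of each gene's RNA in culture came from stromal cells was not tested.

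In culture the mutant allele went with a different pattern. Of the 10 genes, 3 were called higher and 4 lower, beside 21.7% of 12457 genes called (3.16% higher and 18.5% lower), and 4 of the 7 calls had the direction seen in sorted pro-B cells. For Nrgn and Cldn4 among those 4, the minimum of 1 TPM fixed the direction. The median log2 difference over all genes tested was -0.18, against which each value below is to be read. With a median-of-ratios factor for each library that median shifted by 0.17, and 37.4% of called genes were higher in place of 14.6%, while the 7 calls held and Pfn2 was also called higher (0.98, adjusted p = 0.0234). With no filter on low values Epas1 (adjusted p = 0.0885) and Myl4 (adjusted p = 0.0714) were no longer called.

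Cnn1 kept both the direction and the call, and Nrgn was again called lower. Cnn1 was 1.78 and 2.03 TPM in wild-type and 10.4, 13.4 and 18.8 TPM in mutant cultures, a log2 difference of 2.35 ± 0.241 (limma, adjusted p = 0.000835). Nrgn was 3.49 and 2.87 TPM against 0.253, 0.227 and 0.485 TPM, a difference of -1.66 ± 0.173 (adjusted p = 0.0009). Every mutant library lay outside the wild-type range for both genes. Nrgn, however, passed the minimum of 1 TPM through the wild-type libraries alone, which fixed its direction. Enpep was 163 and 186 TPM against 234, 240 and 224 TPM (0.41 ± 0.108, adjusted p = 0.0302). Cldn4 was 1.04 and 1.27 TPM against 0.289, 0.0972 and 0.346 TPM (-0.80 ± 0.168, adjusted p = 0.0143). Cldn4 passed the minimum of 1 TPM through the wild-type libraries alone, which fixed its direction, and its adjusted p was 0.0144 with no such filter. The groups did not overlap for Enpep or Cldn4, although the size of the Enpep change was small beside the 11.7-fold difference in sorted cells. Restricted to the libraries without chromosome Y transcripts (2 wild-type and 1 mutant, whose spread is then taken from the wild type), Enpep (adjusted p = 0.135) and Cldn4 (adjusted p = 0.175) were no longer called.

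Plk2, Epas1 and Myl4 were called in the direction opposite to that in sorted pro-B cells. Plk2 was 24.6 and 17.2 TPM in wild-type and 10.99, 7.77 and 7.54 TPM in mutant cultures, a log2 difference of -1.16 ± 0.222 (limma, adjusted p = 0.0101). Epas1 was 20.7 and 14.8 TPM against 11.6, 6.09 and 5.34 TPM, a difference of -1.16 ± 0.303 (adjusted p = 0.0304). Myl4 was 35.1 and 28.9 TPM against 41.0, 46.9 and 50.7 TPM, a difference of 0.52 ± 0.148 (adjusted p = 0.0416). The groups did not overlap for any of the 3. Stromal markers moved with Plk2 and Epas1: their sum was 1526 and 1821 TPM in wild-type and 835, 871 and 1079 TPM in mutant cultures. Of the 12, 9 could be tested, 5 of them (Col1a1, Col1a2, Pdgfra, Pdgfrb and Acta2) fell by 0.73 to 1.09 on the log2 scale and none rose. Dcn and Lum were below 0.2 TPM in all 5 cultures. The part of stromal RNA in the falls of Plk2 and Epas1 was not tested.

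Pgf was 75.2 and 89.0 TPM in wild-type and 73.2, 62.2 and 80.1 TPM in mutant cultures (log2 difference -0.19, interval -0.53 to 0.14, adjusted p = 0.362). The groups overlapped. Pfn2 was 11.9 and 7.02 TPM against 22.8, 15.4 and 13.8 TPM (0.81, interval 0.19 to 1.43, adjusted p = 0.0658), with the mutant libraries above. Igf1 was 0.654 and 0.601 TPM against 0.427, 0.323 and 0.343 TPM and was too low to be tested. Leaving out wild-type library 1 reduced the genes called from 2703 to 460, and leaving out wild-type library 2 reduced them to 757. In either case Cnn1 and Nrgn were the members still called. Leaving out mutant library 1 raised the count to 5985, and leaving out mutant library 2 lowered it to 1525. Enpep and Myl4 were not called without mutant library 2 or without mutant library 3 (2026 genes), and Pfn2 was called higher without the latter.

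**Figure D2:**
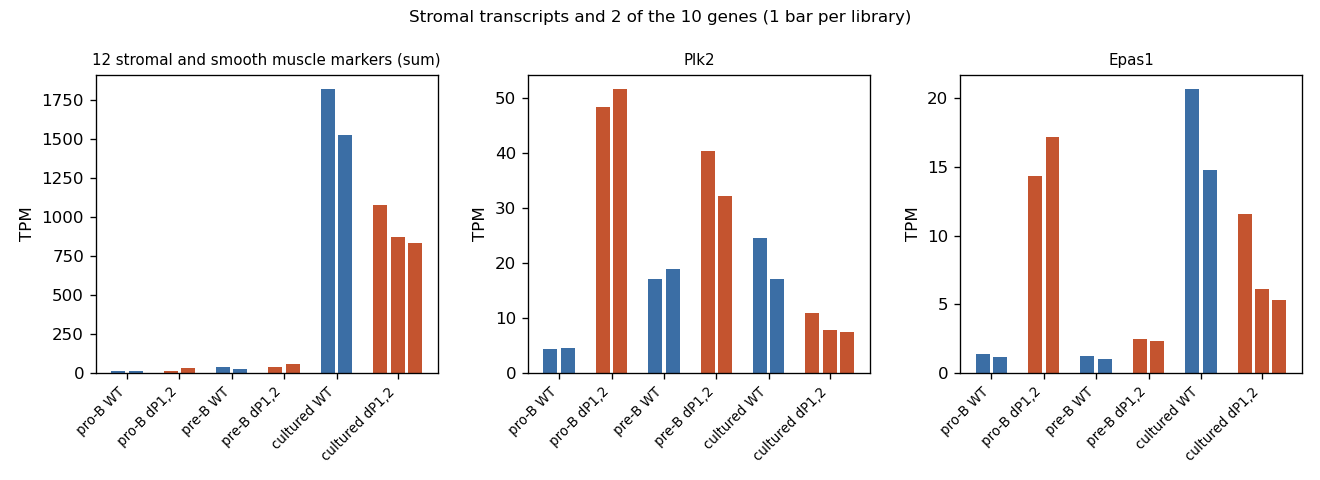
TPM of 12 stromal and smooth muscle markers (sum), of Plk2 and of Epas1 in each library of the Wapl groups, with blue bars for wild type and orange bars for deltaP1,2. The marker sum is 1526 and 1821 TPM in cultured wild-type, 835 to 1079 TPM in cultured mutant and at most 58.0 TPM in sorted libraries.

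The mutant effect differed between culture and pre-B cells for 8 of the 10 genes. The effect in culture was lower for 7 (12.4% of 13280 genes) and higher for 1 (2.75%), beside 15.1% of genes called in either direction, in a test of the difference itself over the 9 libraries of both settings. The median of that difference over all genes was -0.17, and 18.2% of called genes were higher, or 29.7% with median-of-ratios factors. The largest was that of Pgf (-2.40 ± 0.324, adjusted p = 0.00203), followed by Plk2 (-2.13 ± 0.297, adjusted p = 0.00226) and Epas1 (-1.85 ± 0.403, adjusted p = 0.0168). Enpep (-1.28) and Igf1 (-1.28) also differed, as did Myl4 in the other direction (0.98). The calls of Pgf, Igf1, Enpep, Plk2 and Myl4 held without any single library. Those of Epas1 (adjusted p up to 0.0801), Nrgn and Cldn4 did not. Over these 9 fits the genes called ranged from 741 (without pre-B mutant library 2) to 4753 (without cultured mutant library 1), beside 2006. Igf1 reached 1 TPM in the pre-B mutants alone and Cldn4 in the cultured wild type alone, both below 1.6 TPM, so the minimum let them in through the group where they were high. With no filter their adjusted p was 0.00188 and 0.0167. Cell type, culture and library series differ together between these settings and cannot be told apart.

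Loss of Pax5 also came with more Wapl RNA (35.5 and 32.0 TPM against 6.16, 7.20 and 13.6 TPM). Of the 10 genes, 2 rose and 4 fell, beside 36.9% of 12023 genes called (15.5% higher and 21.4% lower), and 5 of the 6 were opposite in sign to sorted Wapl mutant pro-B cells. Among those 5 opposite calls, the minimum of 1 TPM fixed the direction for Enpep, Cnn1 and Pfn2, as it did for Cldn4. Myl4 and Nrgn were the opposite calls whose direction it did not fix. The Pax5(-/-) cells are progenitors and their controls pro-B cells, so the allele and the stage cannot be told apart. The median log2 difference over all genes was -0.11. Without either progenitor library 1651 and 1379 genes were called in place of 4441, and the 6 calls held under every alternative tried.

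Enpep, Cnn1, Cldn4 and Pfn2 were lower without Pax5. Enpep was 12.7, 12.98 and 11.6 TPM in controls and listed at 0 and 0.039 TPM in progenitors, a log2 difference of -3.72 ± 0.182 (limma, adjusted p = 1.39e-05). Cnn1 was 26.7, 32.0 and 21.5 TPM against 0.149 and 0.0413 TPM, a difference of -4.65 ± 0.213 (adjusted p = 1.09e-05). Cldn4 was 14.3, 21.2 and 15.1 TPM against 0 and 0.136 TPM, a difference of -4.05 ± 0.224 (adjusted p = 2.27e-05). These 3, which passed the minimum of 1 TPM through the controls alone, were close to absent in both progenitor libraries, and since the sizes depend on the pseudocount they were -5.56, -6.29 and -5.76 with 0.25 TPM in place of 1. Pfn2 was 3.70, 3.26 and 5.21 TPM against 0.293 and 0.446 TPM (-1.87 ± 0.233, adjusted p = 0.000924 in limma). It too passed that minimum through the controls alone. The minimum thus fixed the direction of every fall given here. The letters shown above for Cldn4, Enpep and Cnn1 differ in what they hold, and no motif searched was common to the 3.

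Myl4 and Nrgn were higher without Pax5, and for each the progenitors held the highest mean of all 19 groups. Myl4 was 333, 146 and 329 TPM in controls and 2613 and 2769 TPM in progenitors, a log2 difference of 3.41 ± 0.332 (adjusted p = 0.000286 in limma). Nrgn was 140, 121 and 233 TPM against 553 and 629 TPM, a difference of 1.89 ± 0.251 (adjusted p = 0.00124). Both progenitor libraries exceeded every control for each gene. Pgf was 1.51, 3.84 and 2.33 TPM against 1.06 and 1.07 TPM (-0.73, interval -1.42 to -0.05, adjusted p = 0.088). Plk2 was 4.16, 3.15 and 3.50 TPM against 3.38 and 3.69 TPM (-0.02, interval -0.47 to 0.44). Epas1 was 0.662, 1.42 and 0.960 TPM against 1.08 and 1.27 TPM (0.13, interval -0.42 to 0.68). The groups overlapped for Plk2 and Epas1, and Igf1 was below 0.7 TPM in all 5 libraries and was not tested. The 16 mitosis transcripts summed to 4145 to 5030 TPM in controls and 2595 to 2640 TPM in progenitors, and 15 of the 16 fell. Of the 11 pro-B and early B markers 7 fell and none rose. The part of either in these changes was not tested.

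**Figure D3:**
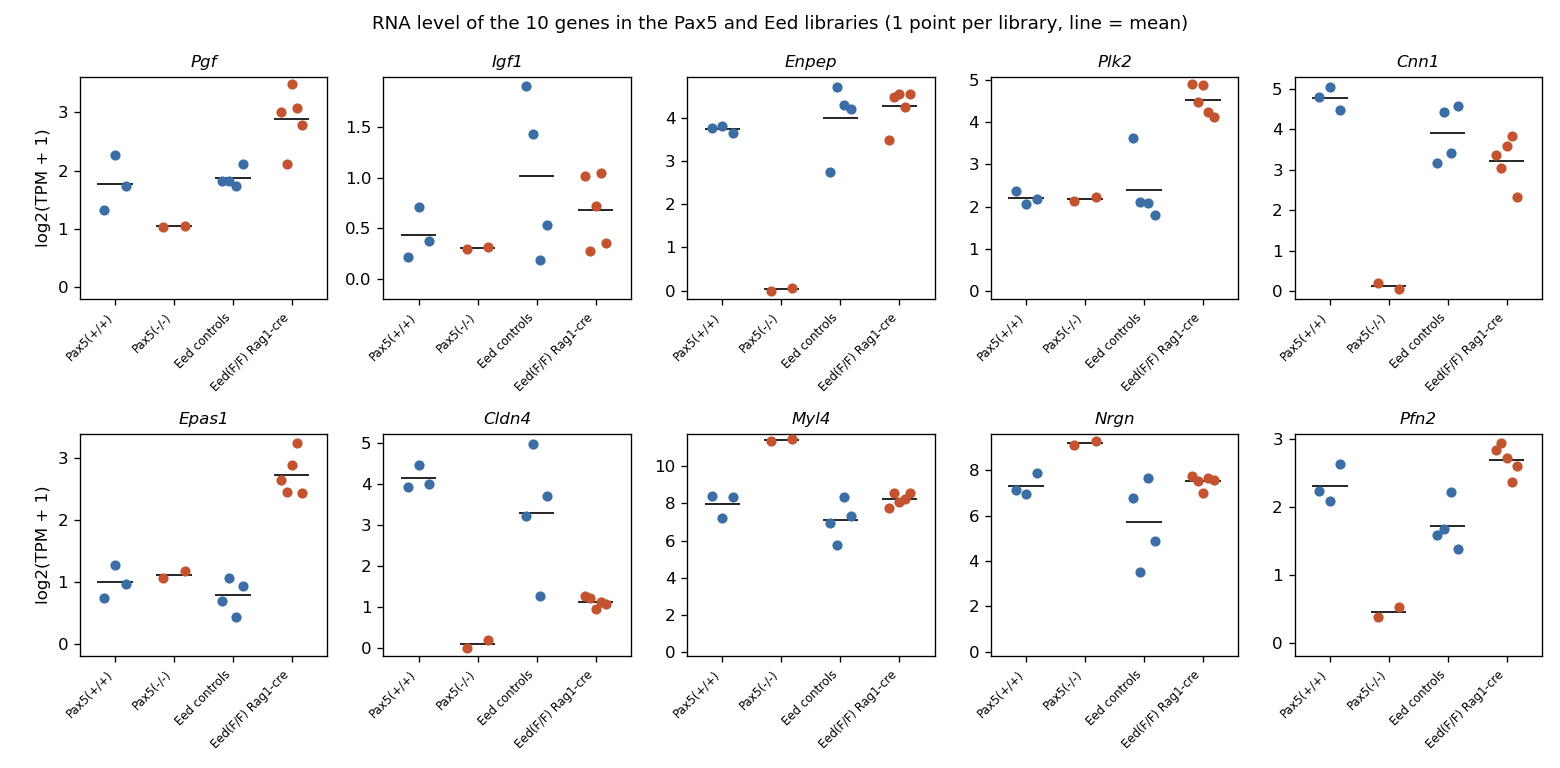
RNA level, as log2(TPM + 1), of each gene in the Pax5 and Eed libraries, with 1 point per library, blue for controls and orange for Pax5(-/-) or Eed(F/F) Rag1-cre, and a line at the mean. Enpep, Cnn1 and Cldn4 sit near 0 in both Pax5(-/-) libraries, and Plk2, Epas1 and Pfn2 are higher in every Eed(F/F) Rag1-cre library than in the controls.

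In pro-B cells labelled Eed(F/F) Rag1-cre, 4 of the 10 genes were higher and none lower, beside 21.8% of 12338 genes called (12.6% higher and 9.17% lower). Over all genes 57.9% of the calls were higher, or 72.1% with median-of-ratios factors. Of these, Epas1 met the minimum of 1 TPM in 4 libraries only through the labelled cells, and its adjusted p was 0.00178 with no filter. All 4 (Pgf, Plk2, Epas1 and Pfn2) were also the higher ones in sorted Wapl mutant pro-B cells. Wapl RNA was 9.42 to 13.7 TPM in libraries labelled Eed(F/F) Rag1-cre and 0.754 to 10.6 TPM in controls. Its log2 difference was 1.56 ± 0.516 (limma, adjusted p = 0.0696). The part of Wapl RNA in these changes was not tested. Plk2 was 2.47, 3.21, 3.28 and 11.4 TPM in controls, the last without Cre, and 16.5, 18.1, 21.2, 28.5 and 29.2 TPM in libraries labelled Eed(F/F) Rag1-cre, a log2 difference of 2.19 ± 0.266 (limma with library series as a term, adjusted p = 0.00093). Epas1 was 0.356, 0.618, 0.914 and 1.09 TPM against 4.44, 4.46, 5.27, 6.46 and 8.51 TPM, a difference of 1.85 ± 0.218 (adjusted p = 0.000786). Pfn2 was 1.59, 2.01, 2.19 and 3.67 TPM against 4.18, 5.09, 5.59, 6.17 and 6.71 TPM, a difference of 1.14 ± 0.16 (adjusted p = 0.00198). The groups did not overlap for any of the 3.

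Within each of the 3 library series, Plk2, Epas1 and Pfn2 were higher in the cells labelled Eed(F/F) Rag1-cre, with differences of group means of 1.28, 2.39 and 2.63 for Plk2, 1.95, 1.70 and 1.93 for Epas1, and 1.25, 1.00 and 1.19 for Pfn2 on the log2 scale. The 3 calls held under every alternative tried. Pgf was 2.33, 2.54, 2.55 and 3.33 TPM in controls and 3.35, 5.86, 6.98, 7.43 and 10.1 TPM in libraries labelled Eed(F/F) Rag1-cre (0.81 ± 0.208, adjusted p = 0.0303). The lowest of the latter was just above the highest control. The call for Pgf was lost with Cre-carrying controls alone (adjusted p = 0.14), and without library 1 (0.143) or 4 (0.065) of the labelled cells or Eed(F/+) library 3 (0.196). The 6 pre-B and immature B markers summed to 36.5 to 140 TPM in controls and 346 to 914 TPM in libraries labelled Eed(F/F) Rag1-cre. The part of that in the changes was not tested.

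The genes lower in the sorted Wapl mutant were uneven among the Eed controls. Nrgn was 10.3, 28.6, 109 and 199 TPM in controls and 128 to 216 TPM in libraries labelled Eed(F/F) Rag1-cre (1.92 ± 0.817, adjusted p = 0.132). Myl4 was 53.6, 122, 158 and 330 TPM against 214 to 372 TPM (1.11 ± 0.507, adjusted p = 0.156). Cldn4 was 1.40, 8.37, 12.1 and 30.4 TPM against 0.931 to 1.40 TPM (-2.22 ± 0.71, adjusted p = 0.0628, unadjusted p = 0.0153). Eed(F/+) library 1 stood at one end for each, with the lowest Nrgn and Myl4 and the highest Cldn4, and Eed(F/+) library 2 at the other. Library 1 also held 0.754 TPM of Wapl and 868 TPM summed over the mitosis transcripts, against 2.73 to 10.6 TPM and 4613 to 7100 TPM in the other controls. Without it, Nrgn (1.33, adjusted p = 0.0333), Myl4 (0.70, adjusted p = 0.0088) and Enpep (0.38, adjusted p = 0.0456) were called higher and Cldn4 lower (-1.72, adjusted p = 0.01), and 5154 genes were called in place of 2691. Without Eed(F/+) library 2 the count was 4802, with Nrgn and Myl4 higher and Cldn4 lower. Without the control lacking Cre it was 1481, without Eed(F/+) library 3 it was 1231, and without library 1, 2 or 5 of the labelled cells it was 1365, 1197 and 1702. Without both Eed(F/+) libraries 1 and 3 (chosen after seeing the data) it was 2390 genes, with Plk2, Epas1 and Pfn2 the members called.

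Igf1, Enpep and Cnn1 did not pass in the Eed comparison. Igf1 was 0.135, 0.443, 1.69 and 2.75 TPM in controls and 0.208 to 1.06 TPM in libraries labelled Eed(F/F) Rag1-cre (-0.35, interval -1.11 to 0.41). Enpep was 5.76, 17.5, 18.6 and 25.2 TPM against 10.3 to 22.7 TPM (0.29, interval -0.11 to 0.68). Cnn1 was 8.00, 9.74, 20.5 and 22.9 TPM against 4.01 to 13.4 TPM (-0.78, interval -1.78 to 0.22). The groups overlapped for each.

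**Figure D4:**
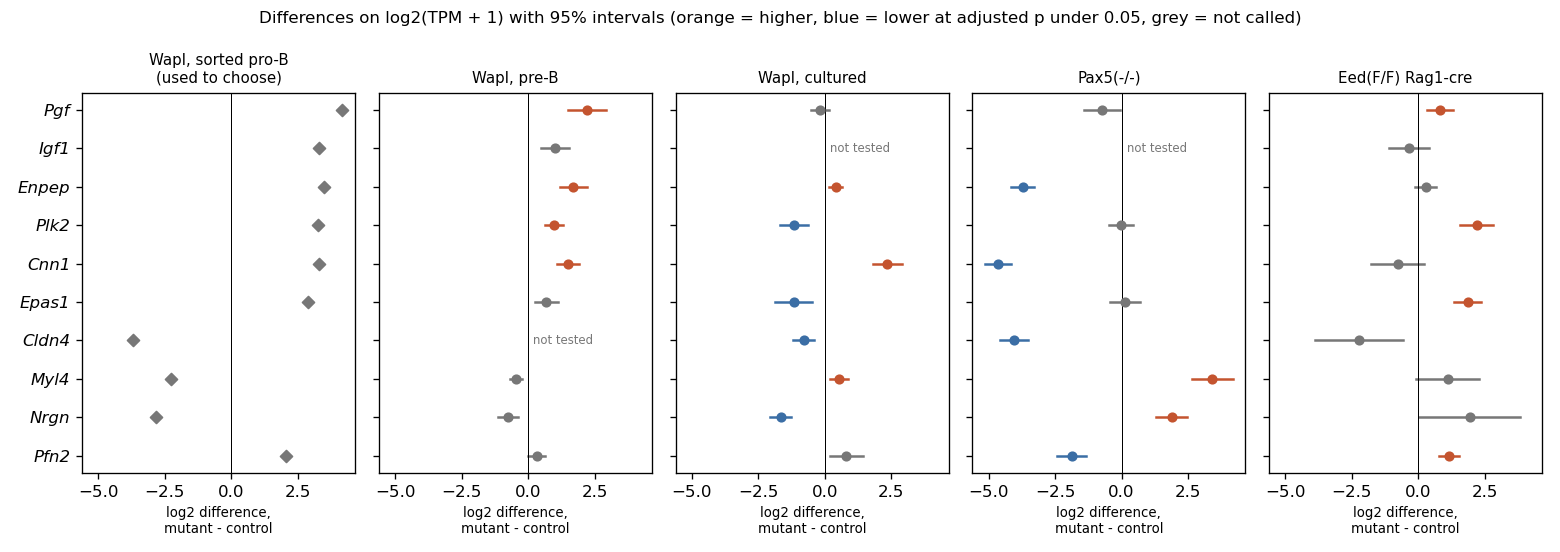
Log2 difference, mutant minus control on log2(TPM + 1), of each gene in 5 contrasts, with 95% intervals. Orange and blue mark genes called higher and lower at an adjusted p under 0.05, grey marks genes not called, and diamonds are the values in sorted pro-B cells used to choose the genes. No gene is called in the same direction in all 4 tested contrasts.

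Across the 19 groups the genes differed in where they peaked. Igf1, Enpep, Plk2, Cnn1 and Pfn2 had their highest mean in sorted Wapl mutant pro-B cells, at 28.2, 237, 50.1, 157 and 19.4 TPM. For Enpep and Pfn2 the next group, the mutant cultures (232 and 17.3 TPM), overlapped it. Pgf (82.1 TPM) and Epas1 (17.7 TPM) were highest in cultured wild-type cells, again overlapping the next group. Cldn4 was highest in sorted Wapl(+/+) pro-B cells (21.8 TPM), overlapping the Pax5(+/+) libraries. Over the 17 immature B libraries, Pgf, Cnn1, Cldn4 and Epas1 had medians of 0.133, 0.298, 0.454 and 0.569 TPM. Plk2 ranged from 4.26 over a median of 7.15 to 8.18 TPM there, Nrgn from 42.8 over 68.8 to 83.2 TPM, and Myl4 from 348 over 554 to 720 TPM.

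**Figure D5:**
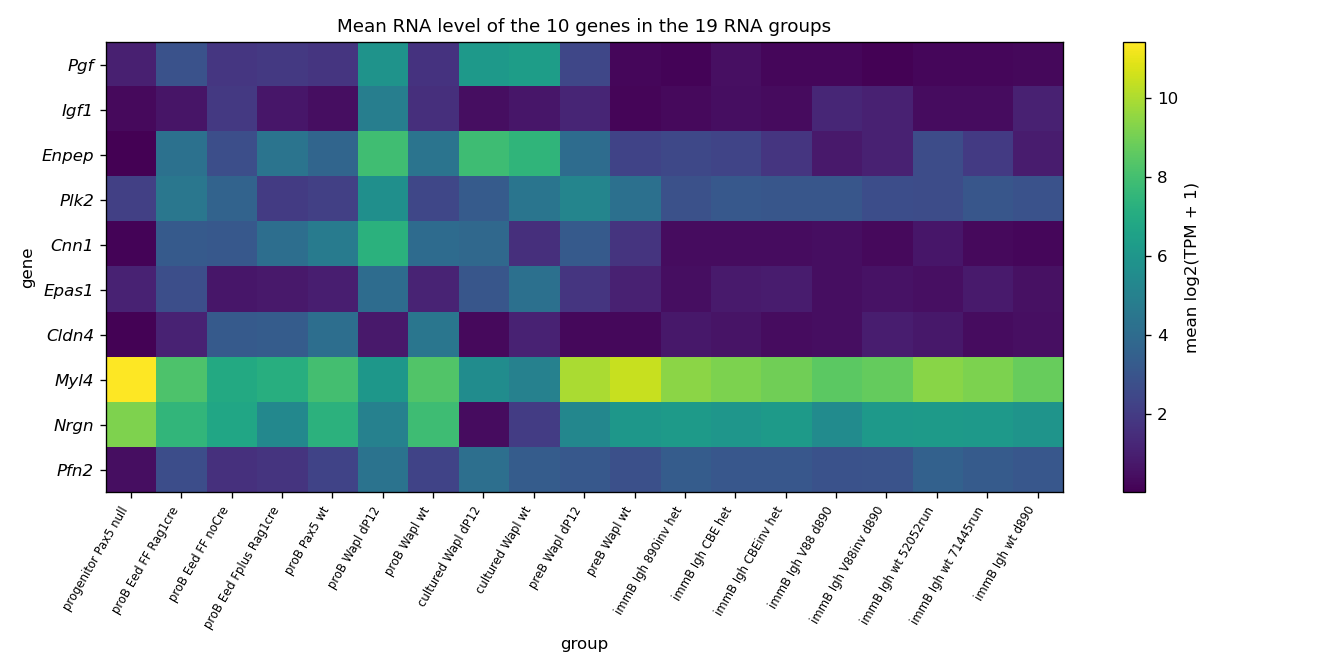
Mean log2(TPM + 1) of the 10 genes (rows) in the 19 RNA groups (columns), from dark (low) to yellow (high). Myl4 and Nrgn are brightest in Pax5(-/-) progenitors, whereas Igf1, Enpep, Plk2, Cnn1 and Pfn2 peak in sorted Wapl deltaP1,2 pro-B cells.

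Over the 44 libraries, the genes most like each of the 10 were taken by Pearson correlation of log2(TPM + 1) among 13807 genes. This is a description in libraries that share library series and cell types. Pgf was closest to Car13 (r = 0.935) and to Enpep (r = 0.923), and Enpep to Pgf and Car13 (r = 0.909). Cnn1 was closest to Pcbp3 (r = 0.926) and Prep (r = 0.913), Cldn4 to Bsnd (r = 0.92) and 3930402G23Rik (r = 0.916), and Epas1 to Prkaa2 (r = 0.915) and Pcdhgc3 (r = 0.914). Igf1 was closest to Kdr (r = 0.87) and Unc79 (r = 0.867), Nrgn to Kctd1 (r = 0.856), and Myl4 to Frat2 (r = 0.837) and Chst15 (r = 0.828). Pfn2 (Ttc39b, r = 0.797, and Ndrg3, r = 0.793) and Plk2 (Apbb2, r = 0.782, and Bmp4, r = 0.767) had the least similar neighbours. Pgf and Enpep were the pair of members that named each other, and Pgf correlated nearly as closely with Epas1 (r = 0.914).

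Lists of relatives of the 10 genes were counted in each comparison. In pre-B cells, where 2.12% of all genes were called, the 1 call in the 7 lists was Adm of the hypoxia-inducible factor pathway, which fell by 1.37 (limma, adjusted p = 0.0455), a share near that of all genes. In culture, where 18.5% of all genes were called lower and 3.16% higher, 4 of 12 growth factor relatives and receptors fell and none rose, among them Nrp2 (-2.08), a co-receptor of the vascular growth factors, and Igf1r (-0.93), the receptor of Igf1. Of 20 actin and myosin regulators 8 fell and none rose in culture, including Tpm1 (-1.06), Acta2 (-1.01) and Tpm2 (-0.96). The medians of these lists were -0.51 and -0.35, beside -0.18 over all genes. Acta2 is also among the 12 stromal and smooth muscle markers. Their sum was 1526 and 1821 TPM in wild-type and 835 to 1079 TPM in mutant cultures. The part of stromal RNA in the falls of these lists was not tested. Cpm, a surface carboxypeptidase, rose in culture (1.55, adjusted p = 0.00136), as did Pcp4, a calmodulin-binding relative of Nrgn (1.58, adjusted p = 0.000786). Of 15 hypoxia pathway genes, 2 rose and 3 fell there, Ndrg1 (-0.93) and Bhlhe40 (-0.92) by the most. Of 5 claudin and tight junction genes Cldn12 fell (-0.69), and no other Polo-like kinase was called.

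Without Pax5, where 15.5% of all genes were called higher and 21.4% lower, 2 growth factor relatives and receptors of 10 rose and 5 fell, with Irs2 (-2.03), an adaptor of insulin-like growth factor receptors, furthest down. The 3 tested Polo-like kinases (Plk1, Plk3 and Plk4) all fell, by 0.75 to 0.97, as did 5 of 6 calmodulin and neurogranin relatives apart from Camk2g, which rose. Of 14 hypoxia pathway genes 3 rose, led by Egln3 (2.79), a prolyl hydroxylase, and 2 fell. Cpm fell (-2.73), 1 of 2 peptidases that did, while Dpp4 rose (0.97). Of 20 actin and myosin regulators 3 rose and 6 fell, Myh10 (-1.88) by the most.

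In cells labelled Eed(F/F) Rag1-cre, where 12.6% of all genes were called higher and 9.17% lower, 5 of 13 growth factor relatives and receptors rose and none fell, led by Igfbp2 (2.40), Igf2 (1.68) and Nrp1 (1.56). Of 7 claudin and tight junction genes 4 rose and none fell, among them Tjp1 (2.75) and Cldn7 (2.63), whereas Cldn4 itself was lower without passing. Plk5 (1.59) and Plk3 (1.37) rose among 4 Polo-like kinases, 4 of 19 actin and myosin regulators rose, led by Myh10 (3.79), and Pcp4 rose by 4.78. The epithelial markers summed to 3.46 to 10.3 TPM in controls and 45.5 to 69.3 TPM in these libraries. Nearly all of that was Krt18 (40.15 to 58.42 TPM in these libraries) and Epcam (4.955 to 10.23 TPM). None of Cdh1, Krt8 and Krt19 exceeded 0.374 TPM in them. Of 15 hypoxia pathway genes 2 rose and 3 fell, each by under 0.75, and 1 of 6 peptidases rose (Anpep, 1.86) and 1 fell (Dpp4, -1.10).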

How the data were processed

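RNA levels are TPM values as deposited by the authors, 1 table for each of 44 libraries. The submitters' processing notes name featureCounts 1.5.0, Trim Galore 0.4.2 and cutadapt 1.16 among the tools, and builds mm9 and mm10, without assigning roles. Which aligner produced the RNA values is not stated in the sources used here. In 11 tables the value column is headed by a number and no unit, so these deposited values are a signal taken as TPM because they sum to 1000000, as in the other tables. Depth per library is unknown, and no counting interval is given. CTCF peak positions are those deposited by the authors, called per library on mm9. RefSeq promoters are on GRCm38.p6, and the builds were not mixed.

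From the TPM values, suffixes of repeated gene names were removed and values were set to log2(TPM + 1). Genes at 1 TPM or more in enough libraries to fill the smaller group were tested with limma 3.58.1 (R 4.3.3), with Benjamini-Hochberg adjustment over all genes tested and a threshold of 0.05. Intervals are 95% and differences are mutant minus control on that scale, which understates changes of low genes. Each comparison used its own libraries, the Eed fit had library series as a term, and the difference between culture and pre-B cells was an interaction term. The share of all genes without overlap was counted only for cultured against sorted wild-type cells. In the other comparisons a lack of overlap describes the listed values and is no test. The procedure was checked on simulated data. Alternatives were a pseudocount of 0.25, no filter, median-of-ratios factors, other choices of libraries and leaving out each library.

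The 10 genes, the lists of relatives and markers and the tests were chosen with earlier results of these data known. Besides the 10 genes and Wapl, Pax5 and Eed, the genes named were the 2 with the most similar profile to each, at most 3 called genes of largest change per list and comparison, and cell type markers. Camk2g and Adm were singled out as lone members of a direction after their values were seen. Chromatin and chromosome conformation samples other than the CTCF peaks were not used here. A few genes that the naming rule would include are not reported here.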

Additional observations from a re-analysis of the deposited data

Results flagged for a closer look

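Plk2 in the control without Cre of the Eed comparison was 11.43 TPM, far from the other 3 controls, of which the nearest was at 3.28 TPM. It stood apart by its gap to the nearest value relative to the range of the 4 controls. Of 20 groups examined this way this was 1, and chance gives about 1 in 20. The 5 libraries labelled Eed(F/F) Rag1-cre were above it all the same, at 16.5 TPM or more.

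The effect of the Wapl allele differed between cultured and pre-B cells for 8 genes in a test of that difference (limma, adjusted over all genes). The log2 effect in culture minus that in pre-B cells was -2.4 for Pgf, -1.28 for Igf1, -1.28 for Enpep, -2.13 for Plk2, -1.85 for Epas1, -0.81 for Cldn4, -0.9 for Nrgn and 0.98 for Myl4. Igf1 and Cldn4 passed the minimum of 1 TPM only through the group where they were high. For Plk2 and Epas1 the effects had opposite signs in these settings, every mutant library being above the wild type in pre-B cells and below it in culture. For Myl4 every mutant library was below the wild type in pre-B cells and above it in culture.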

How the results depend on the processing

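No paired analysis was possible because the labels carry no replicate numbers that tie libraries across groups. Of 647 recomputed values, counts of calls among them, 520 were graded as unchanged. For a difference of a gene that means the same direction and side of the threshold, and for a count a value close to the main one. The sign was kept for 487 of 491 differences of the 10 genes. The 4 reversals were near 0 without Pax5, where Plk2 was 0.067 with median-of-ratios factors and -0.087 to 0.07 with a library left out, and Epas1 was -0.002 to 0.268. The pre-B comparison called 114 genes and 0 of the 10 with no filter on low values (1903 genes at an unadjusted p under 0.05 in limma). It called 376 genes, 1 of the 10 lower, in a fit shared with pro-B libraries. Part of the spread in that fit comes from the libraries on which the genes were picked, so nothing is concluded from its calls. With Cre-carrying controls alone the Eed comparison called 1481 genes, and with no library series term 1 of the 10 was lower. Leaving out each library in turn gave 0 to 203 genes called in pre-B cells (0 to 2 of the 10 higher), 460 to 5985 in culture (1 to 3 higher, 1 to 4 lower), 1379 to 5074 without Pax5, 1197 to 5154 in the Eed comparison (3 to 7 higher, 0 to 1 lower) and 741 to 4753 for the difference between culture and pre-B cells (1 to 2 higher, 4 to 7 lower). Where this left a lone library in a group, it was assumed to vary like the other group. Without depth, values under about 1 TPM cannot be given a counting error.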

Other observations

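Wapl RNA was 163 and 405 TPM in a pair of wild-type immature B libraries of 1 library series, against 12.7 to 40.8 TPM in the other 15 immature B libraries. In this pair Nrgn was 78.4 and 67.9 TPM, inside the range of the other immature B libraries. Myl4 was 720 and 609 TPM, the former being the highest of the 17.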
